A study of Drosophila melanogaster with 7 samples.

Results

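The comparison described here sets 2 midgut libraries of Drosophila melanogaster that their titles assign to batch 2 against 4 libraries assigned to batch 1. These 6 libraries are all those housed at 10% or 20% oxygen, out of 7 in the series, and they were chosen by batch and oxygen level alone. Batch 1 holds replicates 1 and 2 at each oxygen level, and batch 2 holds replicate 3 at each. The animals of every library were virgin females of the strain sg-Gal4,UAS-GFP, in which a Gal4 driver named sg and a GFP reporter are carried by all groups, kept in sealed cabinets of set oxygen and dissected at day 53. The seventh library, housed at 40% oxygen and titled batch 2, has no partner in batch 1, so its values are given beside the others and it enters no test. Neither the origin of the replicates (separate animals or not) nor what differed between the batches is stated in the labels, and the p-values therefore speak only of how far these libraries spread, part of which may be technical.

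The adult fly midgut is a tube of epithelium wrapped in muscle. Its epithelium holds absorptive enterocytes, hormone-secreting enteroendocrine cells and the stem cells and enteroblasts that replace them, and it secretes digestive enzymes and a chitin and mucin lining called the peritrophic matrix. Around the epithelium lie a basement membrane, circular and longitudinal visceral muscle, tracheal branches that bring air, and nerve endings. Fat body, Malpighian tubules, hindgut and ovary lie against the midgut in the body cavity and can come along in a dissection. In RNA from whole tissue, fewer cells of a type and less RNA per cell cannot be told apart.

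The batches differed first in how much RNA came from the mitochondrial genome, which made up 4.1% to 4.68% of counts in batch 1 against 61.04% and 63.95% in batch 2. All levels below are therefore CPM (counts scaled to a total of 1 M, M being mega) of the counts outside the mitochondrial genome, which numbered at least 20.64 M and at most 21.22 M in batch 1. Batch 2 held 7.49 M of them at 10% oxygen and 7.0 M at 20%. A count of 3, taken as the floor of detection, was 0.141 to 0.145 CPM in batch 1 and 0.401 and 0.429 CPM in batch 2. The mean sequenced fragment was 272 to 280 bases in batch 1 and 244 and 254 bases in batch 2. The part of these differences in the results below was not tested. Enterocyte markers were present in all 6 libraries: Myo31DF lay between 137 and 329 CPM and nub between 55.5 and 92.6 CPM.

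Of 9853 features tested with edgeR's quasi-likelihood test, with oxygen as a covariate, 2625 were called higher in batch 2 (26.6%) and 2686 lower (27.3%) at a Benjamini-Hochberg adjusted p below 0.05. The median log2 fold change was -0.06, and 5922 features had an unadjusted p below 0.05. The batch difference had the same direction within 10% and within 20% oxygen for 5303 of the 5311 called features. Those directions come from the same libraries as the calls, and features of opposite directions are rarely called, so the count is no separate support. At 35.3% of features both batch 2 libraries lay above both batch 1 libraries of their oxygen level, and at 37.7% below. Larger rises were commoner than larger falls: 9.35% of features were called higher by more than 2 log2 units and 1.81% lower by as much. Counts of list members below are to be read against these shares.

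**Figure D1:**
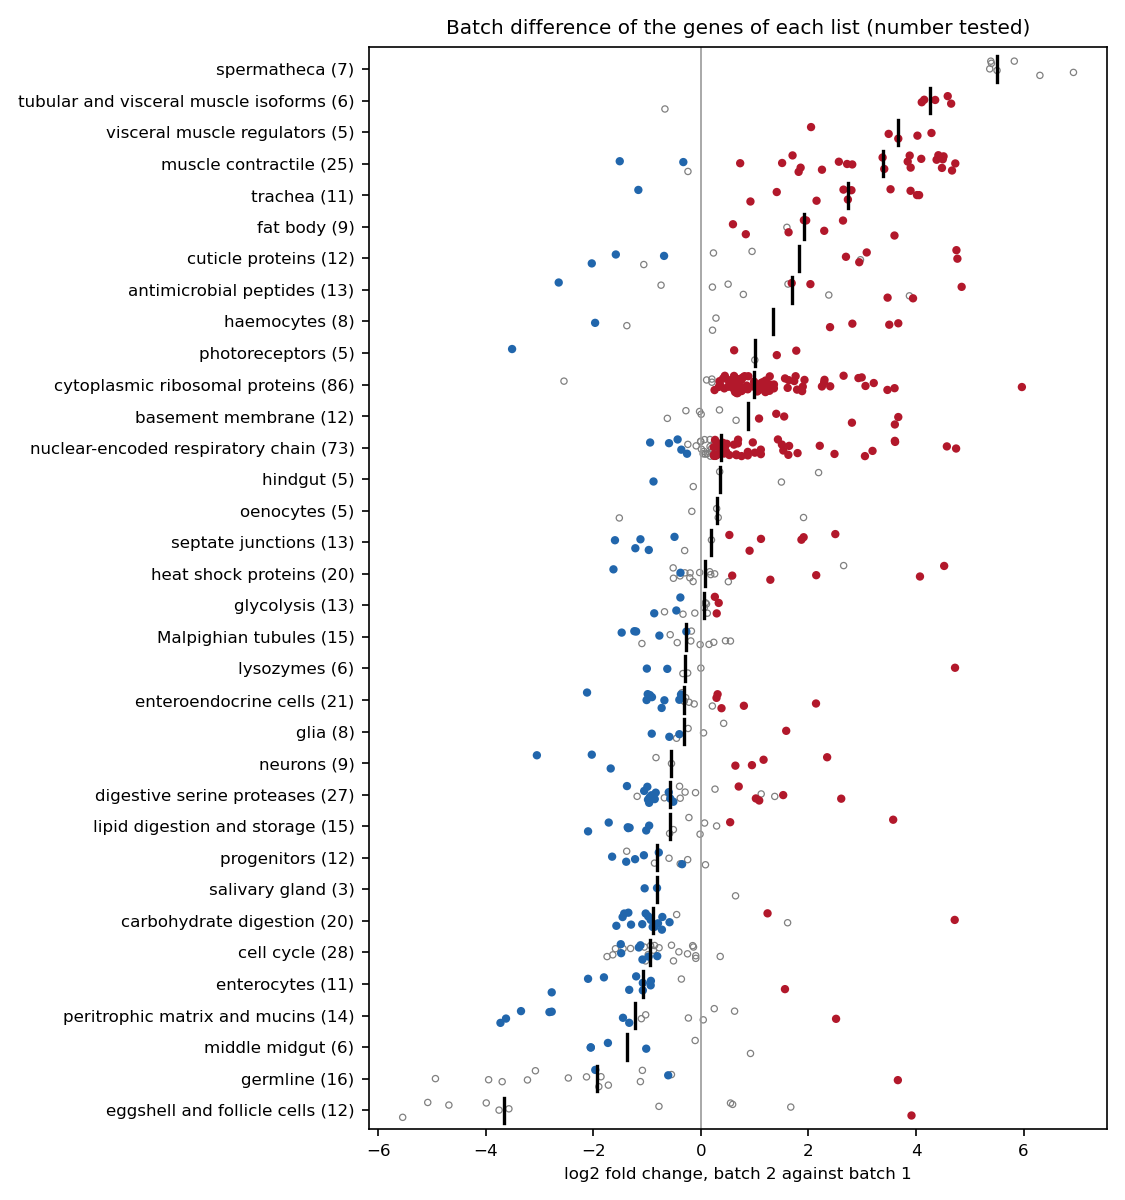
Log2 fold change of batch 2 against batch 1 (x axis) for the members of each gene list (y axis, number tested in brackets). Filled points passed the test at an adjusted p below 0.05, red higher and blue lower, open points did not, and the bar is the median; genes with no count in 1 of the batches are left out of the points. The contractile, tubular and visceral muscle, visceral regulator and trachea lists have medians between 2.73 and 4.26, and the enterocyte list one of -1.08; with scaling by ribosomal protein genes the median of all features falls by 0.99 and medians that are near 0 or slightly above it, such as those of the basement membrane and respiratory chain lists, turn negative.

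Muscle genes stood far higher in batch 2. Of 25 genes of the contractile machinery, 22 rose, 2 fell and 1 did not pass the test, with a median log2 fold change of 3.38. The list took 0.31% and 0.329% of counts outside the mitochondrial genome in batch 1 at 10% oxygen and 0.346% and 0.35% at 20%, while batch 2 gave it 2.18% and 2.08%. The 40% library was at 2.0%. Counted against all reads, mitochondrial genome included, the share still rose from between 0.297% and 0.334% to 0.849% and 0.75%.

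Mhc, the single muscle myosin heavy chain gene of the fly (2L, 16766566 to 16788766), was at 147 and 148 CPM in batch 1 at 10% oxygen and at 198 and 187 CPM at 20%. In batch 2 it was at 1710 and 1751 CPM, and its log2 fold change was 3.41 (SE 0.14, edgeR adjusted p = 7.2e-05). The regulatory and essential myosin light chains moved with it. Mlc2 was at 143 to 211 CPM in batch 1 and 3701 and 3715 CPM in batch 2 (log2 fold change 4.50, SE 0.17). Mlc1 was at 50.4 to 66.8 CPM against 1322 and 1185 CPM, a log2 fold change of 4.48 (SE 0.16). The batches did not overlap at any of the 3 genes, and within a batch no library departed from another by as much as the batches did.

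The thin filament followed. Tm2, a tropomyosin, rose from between 55.3 and 70.8 CPM to 1311 and 1261 CPM (log2 fold change 4.42, SE 0.13), and wupA, which encodes troponin I, from between 45.7 and 63.3 CPM to 1051 and 1061 CPM (4.38). Troponin T, encoded by up, had a log2 fold change of 3.88. The Z-disc proteins Mlp60A (4.67), Zasp66 (4.73) and Mlp84B (3.85) rose as well, as did Prm, the paramyosin of the thick filament core (3.90), and Mp20, a calponin-like protein (4.51). Mlp84B overlaps Alh on the same strand, and that pair had a log2 ratio of sums of 2.87.

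Other members, named after their values were seen, rose less, fell or did not pass. The calcium pump SERCA, present in most cells, went from between 276 and 327 CPM to 494 and 492 CPM (log2 fold change 0.73, SE 0.08), but its direction turned on the ribosomal protein scale (-0.26, edgeR adjusted p = 0.0272), and with limma on TPM it did not pass (0.30, adjusted p = 0.0602). Msp300, a nesprin that anchors nuclei, fell from between 187 and 207 CPM to 70.4 and 66.3 CPM (log2 fold change -1.51, SE 0.11), a call lost with effective length offsets (-0.22, edgeR adjusted p = 0.14). Mef2, the muscle transcription factor, fell slightly, from between 51.3 and 58.7 CPM to 40.5 and 44.7 CPM (log2 fold change -0.33, edgeR adjusted p = 0.0223). That call was lost with the length trend removed (-0.06, edgeR adjusted p = 0.549) or features of at least 500 bases alone (0.12). It was also lost without replicate 1 or replicate 2 of batch 1 at 10% or the batch 2 library at 20% (edgeR adjusted p = 0.0813, 0.0571 and 0.133). Argk1, an arginine kinase, did not pass the test (log2 fold change -0.24, edgeR adjusted p = 0.0803), though DESeq2 and 4 other alternatives called it lower.

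Of 7 isoform genes listed for tubular and visceral muscle, 6 were tested, and 5 of these rose. TpnC41C was not among those tested. Act57B, a muscle actin (spanning a small nucleolar RNA, snoRNA:660, on the same strand), was at 254 and 228 CPM in batch 1 at 10% oxygen and at 388 and 335 CPM at 20%, against 4639 and 5215 CPM in batch 2. Its log2 fold change was 4.11 (SE 0.17, edgeR adjusted p = 8.43e-05). Act87E, a second muscle actin, rose from between 24.9 and 36.8 CPM to 448 and 565 CPM. The actins are near-identical in coding sequence, so the split of reads among them is uncertain. The troponin C genes TpnC25D, TpnC47D and TpnC73F had log2 fold changes of 4.65, 4.59 and 4.36. The sixth tested member, Act79B, stayed below 1 CPM in every library.

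Flight muscle genes, by contrast, were nearly silent. Act88F, the flight muscle actin, was at 0.288 to 0.908 CPM in batch 1 and 1.34 and 1.14 CPM in batch 2, and TpnC4 at no more than 0.668 CPM anywhere. The flight muscle protein flightin (fln) had no count in batch 1 or in batch 2 at 20% oxygen and was at 0.401 CPM, the floor, in batch 2 at 10%. Of the 2 members tested neither passed (edgeR adjusted p = 0.238 for Act88F and 0.127 for TpnC4).

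Regulators that mark visceral muscle rose as well. All 5 tested members were called higher, with a median log2 fold change of 3.67. HLH54F, a bHLH factor of the founders of the longitudinal gut muscles, went from between 0.727 and 0.943 CPM to 15.6 and 16.3 CPM (log2 fold change 4.29, SE 0.16). Hand, a bHLH factor of heart and visceral muscle, went from between 2.97 and 3.74 CPM to 54.1 and 53.0 CPM (4.03, SE 0.13). The forkhead factor biniou (bin) had a log2 fold change of 3.67 and the T-box factor org-1 one of 3.49. vn, which encodes the EGF receptor ligand that visceral muscle supplies to intestinal stem cells, rose from between 1.27 and 2.16 CPM to 6.01 and 7.43 CPM (2.05, SE 0.28).

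Tracheal genes were also higher in batch 2. Of 11 tested members 10 rose and 1 fell, with a median log2 fold change of 2.73. Gasp, a chitin-binding protein of the tracheal lumen (3R, 6088799 to 6100887), was at 9.75 and 9.30 CPM in batch 1 at 10% oxygen, 7.95 and 8.44 CPM at 20%, and 148 and 138 CPM in batch 2. Its log2 fold change was 4.06 (SE 0.06, edgeR adjusted p = 2.53e-05), and the batches lay far apart. trh (trachealess), the bHLH-PAS factor that sets tracheal fate (overlapping lncRNA:CR45378), rose from between 1.55 and 2.01 CPM to 20.2 and 19.7 CPM (3.53, SE 0.13). The chitin deacetylases of the tracheal tube, verm and serp, had log2 fold changes of 4.02 and 3.90.

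The member that fell was tyn (-1.16), which overlaps RhoGAP1A on the same strand, and that pair summed to 245 to 260 CPM against 72.6 and 68.0 CPM. Of the muscle and tracheal genes named by the rule, none lost its call under any alternative in which it was tested.

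**Figure D2:**
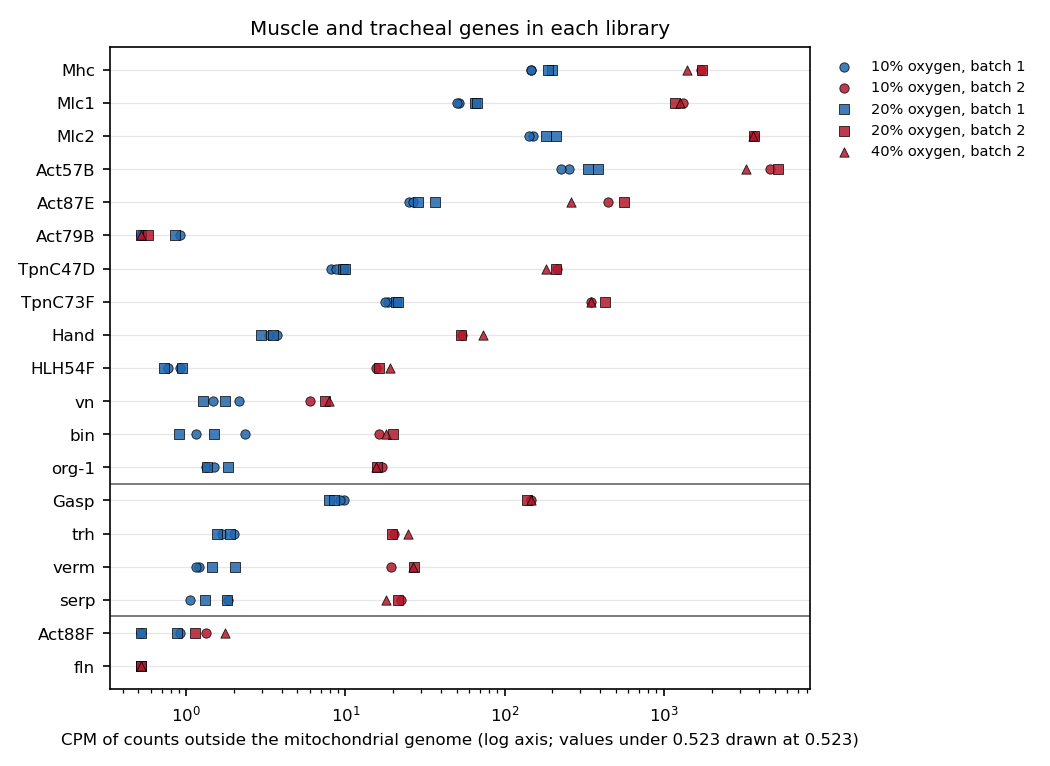
Level of 19 muscle and tracheal genes in each of the 7 libraries (CPM outside the mitochondrial genome, log axis). Blue marks batch 1 and red batch 2, with circles for 10%, squares for 20% and triangles for 40% oxygen; values under 0.523 CPM are drawn at 0.523. Apart from Act79B, the tubular and visceral muscle and tracheal genes lie far apart between the batches, as Gasp at 7.95 to 9.75 CPM against 138 CPM or more, while the flight muscle genes Act88F and fln lie near the floor.

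Genes of the fat body, the store and secretory organ of the body cavity, rose in 8 of 9 tested members, with a median log2 fold change of 1.92. Tsf1, the secreted iron carrier transferrin 1, was at 17.8 to 22.9 CPM in batch 1 and 234 and 250 CPM in batch 2 (log2 fold change 3.60, SE 0.13, edgeR adjusted p = 6.17e-05). The gene fit, a female fat body peptide that signals feeding state (overlapping asRNA:CR45046), rose from between 4.71 and 13.5 CPM to 53.9 and 58.0 CPM (2.64, SE 0.38). The yolk protein genes, also made by follicle cells of the ovary, spread more. Yp3 was at 223 and 103 CPM in batch 1 at 10% and 169 and 97.6 CPM at 20%, against 933 and 525 CPM (2.29, SE 0.40). Yp1 was at 132 to 409 CPM against 1219 and 895 CPM. The lipid carrier apolpp ran from 18.4 to 64.5 CPM in batch 1 and was at 96.7 and 83.3 CPM in batch 2 (1.63, SE 0.38). Calls of the last 3 were lost without the batch 2 library at 10% oxygen, where the edgeR adjusted p was 0.075 for Yp3, 0.161 for Yp1 and 0.0522 for apolpp, and those of Yp1 and apolpp also without the batch 2 library at 20% (0.0613 and 0.159). That of apolpp was lost as well without replicate 1 or replicate 2 of batch 1 at 20% (0.0605 and 0.0581).

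Basement membrane genes gave 6 rises and no falls among 12, with a median log2 fold change of 0.87 that turns to -0.12 when ribosomal protein genes set the scale, 0.93 above the median of all features on that scale. SPARC, a collagen-binding protein, rose from between 6.76 and 11.2 CPM to 79.4 and 121 CPM (3.61, SE 0.15). Ppn, papilin, rose from between 26.4 and 35.0 CPM to 165 and 235 CPM (2.81), and LanB1, a laminin chain, from between 26.0 and 41.5 CPM to 72.5 and 86.5 CPM (1.40). The collagen IV chains vkg and Col4a1 did not pass: replicate 2 at 20% oxygen of batch 1 held them at 27.1 and 28.6 CPM, above both batch 2 libraries at both genes, where vkg was at 7.61 and 15.7 CPM and Col4a1 at 7.08 and 20.0 CPM.

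Haemocyte (blood cell) markers took 0.0123% to 0.0182% of counts in batch 1 and 0.0158% and 0.0187% in batch 2. Hml, hemolectin, was at 0.43 to 1.45 CPM in batch 1 and 3.74 and 11.9 CPM in batch 2 (2.82, SE 0.56, edgeR adjusted p = 0.00999), and NimC1, a phagocytosis receptor, at no more than 0.527 CPM against 2.54 and 4.72 CPM (3.50, SE 0.61). Both calls were lost without the batch 2 library at 20% oxygen (edgeR adjusted p = 0.104 and 0.0691). He had no count in batch 1. PPO1, a prophenoloxidase of crystal cells, fell from between 15.2 and 38.3 CPM to 4.14 and 6.72 CPM. Its call was lost without the batch 2 library at 10% (edgeR adjusted p = 0.118) and without replicate 2 of batch 1 at 20% (0.0507). Of 8 members tested 4 rose and 1 fell.

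Neuronal genes split, with 4 rises and 3 falls among 9. nSyb, neuronal synaptobrevin of the synaptic vesicle, rose from between 6.76 and 8.11 CPM to 40.2 and 34.7 CPM (2.35, SE 0.13). CaMKII, a kinase abundant in neurons and muscle, rose by 0.95, though on the ribosomal protein scale it was at -0.04. The neuronal RNA-binding protein gene elav had a log2 fold change of 1.17, a call lost on the ribosomal protein scale (0.17, edgeR adjusted p = 0.578), with effective length offsets (0.28, 0.285) and without the batch 2 library at 10% oxygen (edgeR adjusted p = 0.113). Syx1A, which overlaps eIF4EHP on the same strand, fell from between 39.8 and 45.4 CPM to 15.35 and 10.72 CPM (-1.68, SE 0.14). Summed with eIF4EHP it had a log2 ratio of -0.89. brp, the active zone scaffold, fell from between 2.30 and 2.59 CPM to 0.267 and 0.286 CPM, which is under the floor in those libraries. futsch also fell to levels under the floor (-2.03), a call lost with the length trend described below removed (edgeR adjusted p = 0.152). Among 8 glial genes 1 rose and 3 fell, and repo, the glial transcription factor, had at most 0.0969 CPM in batch 1.

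A set of peptide hormone receptors was assembled after its values had been seen, and therefore carries no test as a group. Of its 19 measured members, 15 had a log2 fold change above 0, with a median of 2.27. AstA-R2, a receptor for the gut peptide allatostatin A, was at 9.17 to 10.6 CPM in batch 1 and 153 and 171 CPM in batch 2 (log2 fold change 4.09, SE 0.07). The allatostatin C receptor AstC-R2 was at 2.48 to 3.82 CPM against 38.7 and 60.3 CPM, and MsR2, a myosuppressin receptor, at 1.43 to 1.89 CPM against 15.5 and 21.7 CPM. Integrin adhesion genes, also gathered after their values were seen, had a median of 0.31, which is -0.69 on the ribosomal protein scale. Within that set if, the alpha subunit found at muscle attachments, went from between 11.8 and 18.4 CPM to 86.9 and 74.0 CPM (2.45, SE 0.18), while scb, another alpha subunit, went from between 256 and 308 CPM to 99.3 and 121 CPM (-1.29, SE 0.12).

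Unlike the fat body list, those of the Malpighian tubules, hindgut and oenocytes gave 0 rises. Of 15 Malpighian tubule genes 0 rose and 5 fell. Uro, urate oxidase of the tubule, was at 142 and 13.9 CPM in batch 1 at 10% oxygen and 107 and 216 CPM at 20%, against 70.0 and 163 CPM in batch 2, so that the batches overlapped. The falls were in ion transport genes such as Prestin, from between 136 and 151 CPM to 49.0 and 50.5 CPM (-1.47, SE 0.09), and ClC-a, a chloride channel (-1.24). Prestin and ClC-a did not vary within batch 1 as Uro did. In replicate 2 at 10% oxygen, where Uro was lowest, Prestin was at 151 CPM, and ClC-a was at 77.8 CPM against 88.4 to 96.3 CPM in the rest of batch 1. Which tissue these reads came from was not tested. Hindgut genes gave 0 rises and 1 fall among 5, and byn, the hindgut T-box factor, was at 1.94 CPM or less in every library. Oenocyte genes gave 0 calls among 5: Cyp4g1, the hydrocarbon enzyme of oenocytes, was at 346 and 0.24 CPM in the batch 1 libraries at 10% oxygen, 130 and 9.71 CPM at 20%, and 80.9 and 178 CPM in batch 2.

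Many reproductive tract genes varied widely among libraries of the same batch. osk, an oocyte mRNA (overlapping lncRNA:osk), was at 14.5 and 0.24 CPM in batch 1 at 10% oxygen, 14.2 and 69.2 CPM at 20%, and 1.07 and 3.43 CPM in batch 2 (edgeR adjusted p = 0.169). Of 16 germline genes 1 rose and 2 fell. The log2 fold change was below 0 for 15 of them, with a median of -1.93. grk rose from between 0.719 and 2.2 CPM to 18.7 and 14.4 CPM (3.66), and exu fell from between 9.54 and 24.3 CPM to 3.87 and 5.29 CPM (-1.96). Vm26Aa, an eggshell protein, was at 69.5 and 0.24 CPM at 10% and 116 and 14.7 CPM at 20% in batch 1 and at 1.07 and 1.86 CPM in batch 2 (edgeR adjusted p = 0.138). Of 12 eggshell and follicle genes 1 was called. Their median log2 fold change was -3.66, but 0.09 within 10% oxygen. The sperm storage organ appeared in single libraries: CG31681, a protease of the spermatheca, was at 269 CPM in batch 2 and 0 CPM in both batch 1 libraries at 10% oxygen, but at 10.4 CPM in batch 2 and 62.3 and 4.1 CPM in batch 1 at 20%. None of the 7 spermatheca genes tested passed (edgeR adjusted p from 0.185 to 0.291 for those named by the rule), although their median fitted log2 fold change was 5.51; within 20% oxygen that median was -1.27.

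**Figure D3:**
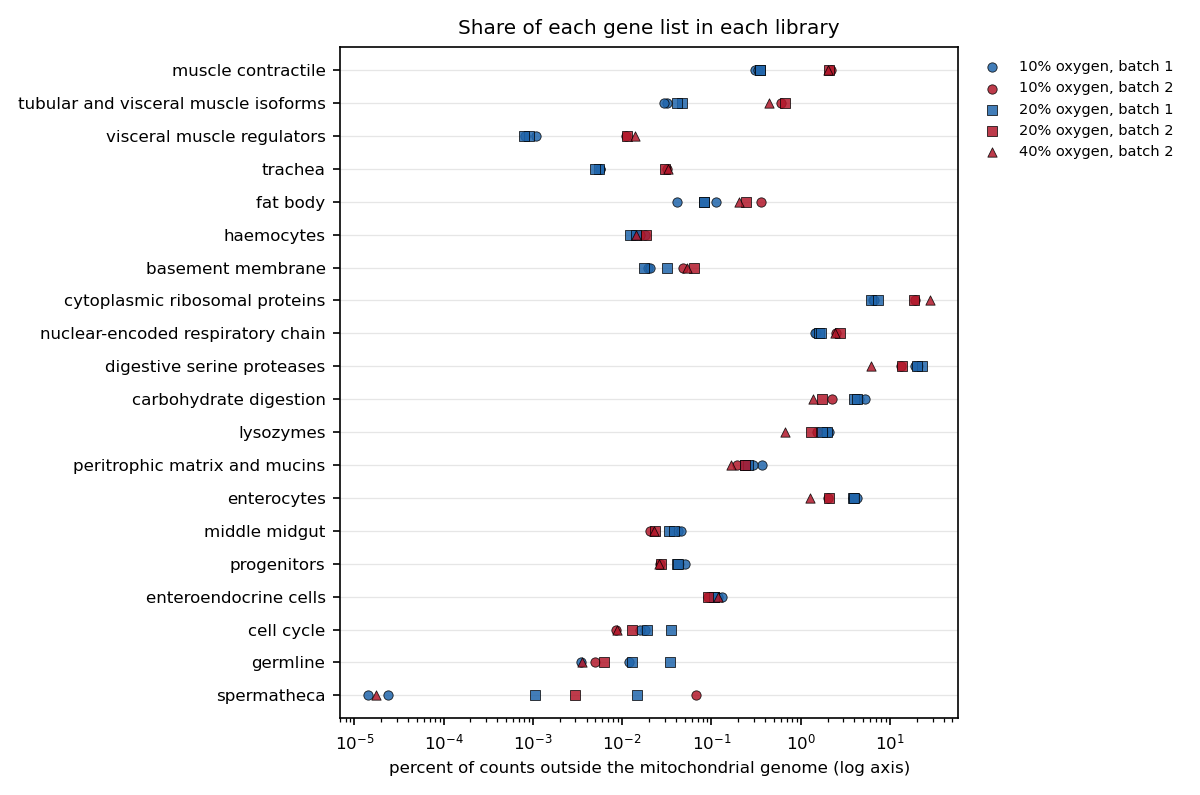
Percent of the counts outside the mitochondrial genome taken by each of 20 gene lists in each of the 7 libraries (log axis, colours by batch and shapes by oxygen level). Muscle and tracheal shares separate the batches, from 0.31% to 0.35% against 2.08% and 2.18% for contractile genes, and the spermatheca share runs from 1.43e-05% to 0.0148% within batch 1 alone.

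The epithelium moved the other way. Of 11 enterocyte genes 9 fell, 1 rose and 1 did not pass, and the median log2 fold change was -1.08. Their share of counts went from between 3.84% and 4.24% to 2.01% and 2.09%. Most of that share in both batches belongs to the digestive enzymes betaTry and Amy-p, which are on this list and are counted again below. Myo31DF, the myosin of the enterocyte brush border, fell from 300 and 324 CPM at 10% and 289 and 329 CPM at 20% to 137 and 148 CPM (-1.08, SE 0.08, edgeR adjusted p = 0.00035). Myo61F, another myosin on the list, fell from between 1364 and 1572 CPM to 605 and 622 CPM (-1.20). GATAe, the GATA factor that maintains endodermal identity, fell from between 90.2 and 137 CPM to 30.6 and 31.0 CPM (-1.80, SE 0.17). The POU factor nub did not pass (-0.36, edgeR adjusted p = 0.0771). mex1, a short transcript of enterocytes, went against the rest and rose from between 193 and 239 CPM to 578 and 636 CPM (1.56, SE 0.11).

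Regional identity genes of the middle midgut, where copper cells secrete acid, gave 4 falls and no rise among 6. Ptx1, the homeodomain factor of the iron-cell region (overlapping lncRNA:CR44041), fell from between 88.9 and 112 CPM to 25.9 and 22.3 CPM (-2.05, SE 0.10). dve, a homeodomain factor of the middle midgut, fell by the same amount, from between 55.9 and 84.6 CPM to 16.8 and 15.7 CPM. lab, labial, which specifies copper cells, fell from between 5.18 and 8.97 CPM to 2.54 and 1.72 CPM (-1.73), and Vha100-4, a proton pump subunit of those cells, from between 56.1 and 67.7 CPM to 34.7 and 25.4 CPM (-1.02).

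Progenitor genes gave 6 falls and no rise among 12, with a median of -0.82. Sox100B fell from between 13.8 and 18.1 CPM to 4.94 and 7.72 CPM (-1.22, SE 0.23), and the zinc finger factor peb from between 107 and 137 CPM to 34.3 and 38.6 CPM (-1.65). esg, the escargot factor of stem cells and enteroblasts, did not pass (-0.38, edgeR adjusted p = 0.16). Delta, the Notch ligand of stem cells, fell from between 3.88 and 7.49 CPM to 1.74 and 2.29 CPM, and the call was lost without either batch 2 library (edgeR adjusted p = 0.0834 and 0.0704). With the trend on transcript length described below removed, 3 of the 12 members were called lower, where 30.4% of all features were. The list median in that fit was -0.44, against -0.21 for all features.

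Enteroendocrine genes were mixed, with 5 rises and 9 falls among 21. The tachykinin gene Tk did not pass, at 70.8 to 106 CPM in batch 1 and 60.6 and 92.8 CPM in batch 2, nor did AstA, which encodes allatostatin A, at 54.7 to 78.6 CPM against 58.8 and 49.3 CPM. NPF, neuropeptide F, rose from between 8.67 and 11.8 CPM to 61.2 and 33.2 CPM (2.14, SE 0.20). The peptide-processing genes svr, a carboxypeptidase, and amon, a prohormone convertase, fell by 0.73 and 0.99. pros, the factor that marks these cells, had a log2 fold change of -0.95 that was lost without the batch 2 library at 10% (edgeR adjusted p = 0.0925) and with the length trend removed (-0.42, edgeR adjusted p = 0.174). With that trend removed 2 members of the list were called higher and 10 lower, where 19.5% and 30.4% of all features were.

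**Figure D4:**
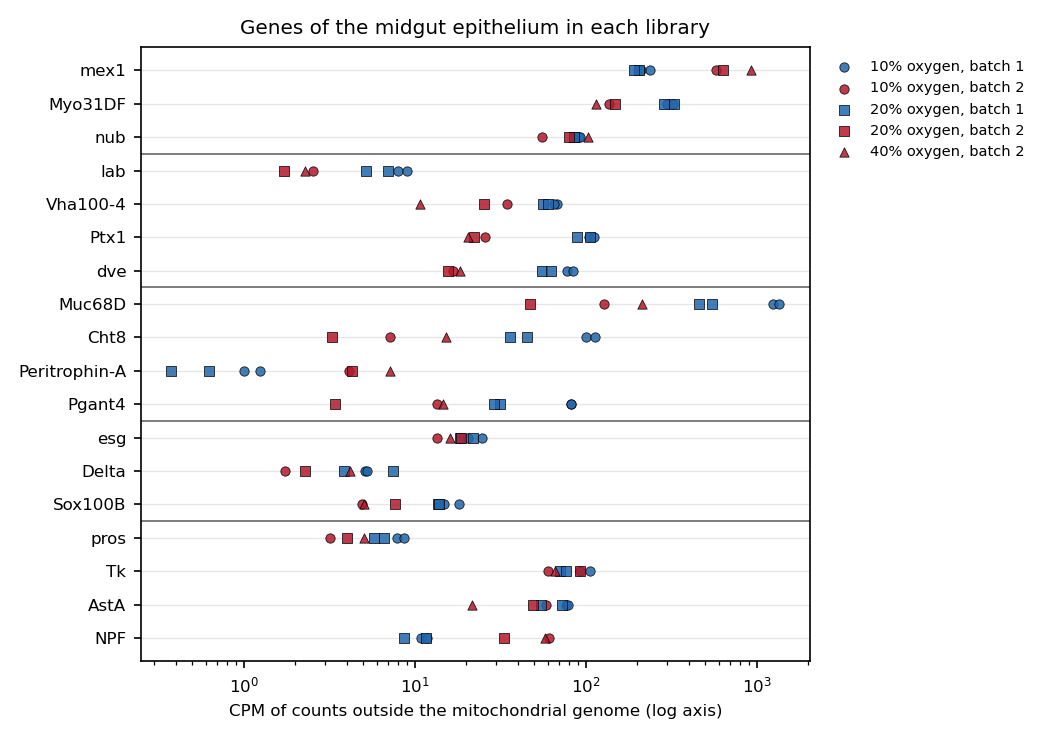
Level of 18 genes of the midgut epithelium and its lining in each of the 7 libraries (CPM outside the mitochondrial genome, log axis), grouped as enterocyte, middle midgut, peritrophic matrix, progenitor and enteroendocrine genes. Batch 2 (red) lies below batch 1 (blue) for the middle midgut genes and for Muc68D, at 128 and 47.0 CPM against 460 CPM or more, and above it for mex1, Peritrophin-A and NPF.

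Secreted digestive enzymes were lower in batch 2. Digestive serine proteases took 19.1% to 23.1% of counts in batch 1 and 13.2% and 13.6% in batch 2, with 13 falls and 5 rises among 27 genes. betaTry, a trypsin, was at 27120 and 29860 CPM in batch 1 at 10%, 27340 and 28240 CPM at 20%, and 13700 and 15010 CPM in batch 2 (-0.93, SE 0.11). Against that trend zetaTry, another trypsin, rose from between 359 and 436 CPM to 2688 and 1985 CPM (2.61, SE 0.18), and Jon99Ci, a chymotrypsin-like protease, from between 5339 and 5525 CPM to 17130 and 13390 CPM (1.53). The proteases form clusters of similar genes, so reads may be split among neighbours.

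Enzymes of starch and sugar digestion fell in 15 of 20 members and rose in 2, and their share went from between 3.93% and 5.23% to 2.23% and 1.74%. The 2 amylases, near-identical copies whose reads cannot be assigned with certainty, both fell: Amy-d from between 14700 and 17270 CPM to 6024 and 5057 CPM (-1.46) and Amy-p from between 8314 and 9412 CPM to 4648 and 4204 CPM (-0.93). The mannosidase LManIII fell by 1.43 on the log2 scale. Among 15 genes of lipid digestion and storage 7 fell and 2 rose. Lsd-2, a lipid droplet coat protein, fell from between 659 and 720 CPM to 213 and 198 CPM (-1.71, SE 0.12), and bmm, the lipase brummer that acts on droplets, from between 271 and 338 CPM to 116 and 119 CPM (-1.36). Npc2b, a sterol carrier, rose from between 5.37 and 14.1 CPM to 115 and 117 CPM (3.58). Lysozymes gave 1 rise and 2 falls among 6.

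Of 14 genes for the peritrophic matrix and mucins 7 fell, 1 rose and 6 did not pass, with a median of -1.22. Their share of counts was 0.365% and 0.295% in batch 1 at 10% oxygen against 0.193%, but 0.238% and 0.259% at 20% against 0.239%, so that the batches overlapped there. Muc68D, a mucin (3L, 11767299 to 11772157), was at 1254 and 1357 CPM in batch 1 at 10% oxygen and 549 and 460 CPM at 20%, against 128 and 47.0 CPM in batch 2 (-3.34, SE 0.17, edgeR adjusted p = 0.000127). Cht8, a chitinase, was at 100 and 113 CPM at 10% and 45.2 and 36.0 CPM at 20%, against 7.21 and 3.29 CPM (-3.73, SE 0.20). Cda9, a chitin deacetylase, and Pgant4, an enzyme that starts mucin glycosylation and a member of the enterocyte list, fell by 2.82 and 2.77. At each of these 4 genes the 10% library exceeded the 20% library or libraries of the same batch, so the oxygen order was shared by batches that differed several-fold in level. Peritrophin-A rose from between 0.377 and 1.24 CPM to 4.14 and 4.29 CPM (2.51).

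Genes of the machinery that loads proteins for secretion were listed after their values had been seen and carry no test as a group. Of 22, 21 had a log2 fold change below 0, with a median of -1.03. Sec16, which organises the sites where vesicles leave the endoplasmic reticulum, was at 108 to 118 CPM in batch 1 and 29.8 and 31.7 CPM in batch 2 (-1.85, SE 0.08), and the chaperone Gp93 at 576 to 671 CPM against 162 and 204 CPM (-1.72). The exception was Xbp1, the transcription factor of the unfolded protein response, at 441 to 501 CPM against 660 and 778 CPM (0.65, SE 0.10), which turned to -0.35 on the ribosomal protein scale and did not pass with limma on TPM (0.23, adjusted p = 0.162). Hsc70-3, the BiP chaperone of the same compartment and a member of the heat shock list, fell from between 973 and 1154 CPM to 292 and 395 CPM (-1.62, SE 0.13).

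Of 13 septate junction genes, which seal the epithelium, 6 rose and 5 fell. mesh, which the smooth septate junction of the midgut requires, fell from between 833 and 1086 CPM to 310 and 287 CPM (-1.60, SE 0.11). Its partners Ssk and Tsp2A did not pass (0.20 and -0.30, edgeR adjusted p = 0.153 and 0.0652). Lac, kune, sinu and Nrg, known from the pleated junctions of trachea, epidermis and glia, rose by 2.50, 1.91, 1.87 and 1.12 log2 units (Nrg did not pass on the ribosomal protein scale, edgeR adjusted p = 0.226), and Lac went from between 6.59 and 9.36 CPM to 46.2 and 40.7 CPM.

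Genes that most cells use also differed. Ribosomal proteins rose in 82 of 86 tested genes, with none lower, a median log2 fold change of 0.98, and a share of counts that went from between 6.09% and 7.25% to 19.2% and 18.7%; on a scale set by these genes themselves the median is -0.01. Against all reads, mitochondrial genome included, their share was 5.84% to 6.92% in batch 1 and 7.48% and 6.74% in batch 2. RpL38 alone went from 348 and 356 CPM at 10% and 241 and 336 CPM at 20% to 19890 and 18700 CPM (5.97, SE 0.13), far beyond RpL24 (3.60) and RpLP2 (3.47). Nuclear-encoded genes of the respiratory chain rose in 49 of 73 members and fell in 6, with a median of 0.37 that is -0.62 on the ribosomal protein scale and -0.06 with TPM. Among them the complex I subunit ND-B14.5B was at 94.0 to 119 CPM against 2777 and 2855 CPM (4.75, SE 0.11). Glycolytic genes gave 3 rises and 3 falls among 13.

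Cell cycle genes gave 0 rises and 7 falls among 28, with a median of -0.95. PCNA, the sliding clamp of replication, fell from between 6.74 and 14 CPM to 2.27 and 4.14 CPM, a call that was lost without either batch 2 library (edgeR adjusted p = 0.0738 and 0.056). The cyclins CycA and CycB did not pass (edgeR adjusted p = 0.0902 and 0.183), and both varied within batch 1 with osk, CycB being at 3.45 CPM where osk was lowest and 59.5 CPM where it was highest. The part of ovary RNA in this list was not tested. Among 13 antimicrobial peptide genes 5 rose and 1 fell: DptA, diptericin A, fell from between 92.1 and 238 CPM to 37.9 and 12.7 CPM (-2.64), while Def, defensin, rose from between 26.3 and 69.5 CPM to 252 and 133 CPM (2.04). With the length trend removed Def did not pass (0.45, edgeR adjusted p = 0.155), and 1 member of the list was called higher and 2 lower. Heat shock and cognate proteins gave 5 rises and 2 falls among 20.

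Lists with few expressed members add little. Salivary gland genes gave 0 rises and 2 falls among 3, and sage, their defining factor, had at most 0.287 CPM in the 6 libraries and 1.4 CPM in the 40% library. Of 5 photoreceptor genes 3 rose and 1 fell, with ninaE, the main rhodopsin, at 0.99 to 3.2 CPM in batch 1 and 5.21 and 1.72 CPM in batch 2 and not called. Cuticle proteins gave 5 rises and 3 falls among 12 tested of 130 in the table, and Cpr78E rose from between 0.287 and 0.848 CPM to 18.4 and 16.0 CPM (4.77). Histones of the replication cluster and small nuclear and nucleolar RNAs had no member above the filter. Nuclear ribosomal RNA made up 0.014% to 0.03% of counts outside the mitochondrial genome in batch 1 and 0.003% and 0.004% in batch 2, with 6 of 7 tested features lower.

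The batch difference also ran with transcript length. Effective length here is the length over which fragments could have started. It was averaged over a gene's transcripts with their TPM as weights, and then over the 6 libraries as a geometric mean. Features were divided into 10 bins of equal size by this length. In the shortest bin (19 to 481 bases) the median log2 fold change was 0.86 and 56.4% were called higher, while in the longest (4811 to 65734 bases) it was -0.72 and 49.7% were called lower. Across the 9853 features, which share the same 6 libraries, Spearman's rho of fold change on effective length was -0.39, given as a description. It was -0.73 among the 25 contractile genes: the titin-like giants sls and bt had log2 fold changes of 1.86 and 1.51 (bt did not pass on the ribosomal protein scale, edgeR adjusted p = 0.0694), against 4.67 for Mlp60A. A fit with this trend subtracted, added after the data were seen, called 19.5% higher and 30.4% lower (49.9% in all), and 3953 of the 5311 calls kept their direction and call.

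Under that fit the contractile and tracheal medians were 3.56 and 2.99, with 22 and 10 genes called higher, the tubular and visceral isoform median went from 4.26 to 3.76, and the enterocyte median was -1.09. Single short genes moved more, Mlp60A from 4.67 to 3.27, TpnC25D from 4.65 to 3.70 and TpnC47D from 4.59 to 3.56. Other groups depended on it. The ribosomal protein median went to 0.04, with 29 higher and 20 lower, and that of the respiratory chain to -0.47, with 12 higher and 42 lower. Serine proteases, which are short, went from 13 to 19 lower, with a median of -1.20. Whether the length trend comes from the fragments of the libraries or from the tissue was not tested.

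**Figure D5:**
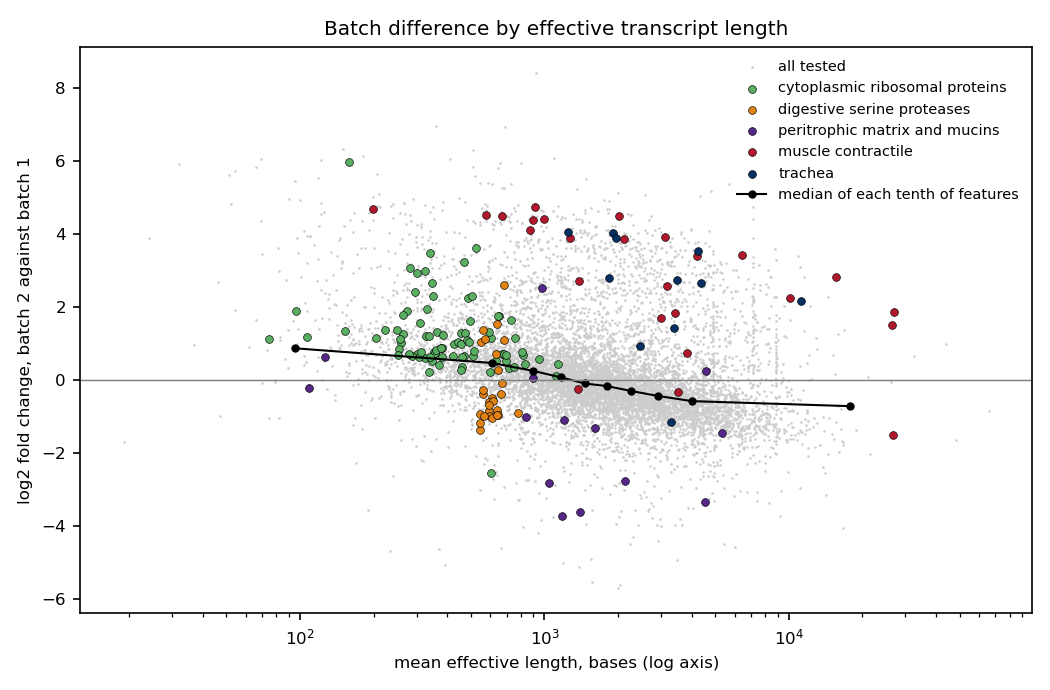
Log2 fold change of batch 2 against batch 1 (y axis) by mean effective transcript length in bases (x axis, log) for all tested features with a count in both batches, with 5 lists coloured and the median of each of 10 bins joined by a line. The line falls from 0.86 in the shortest bin to -0.72 in the longest; contractile and tracheal genes lie above it at nearly every length, ribosomal proteins close above it, and most proteases and mucins below it.

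Outside the lists, the genes with the largest rises were mostly short. whe was at 4.97 and 4.70 CPM in batch 1 at 10% oxygen, 34.2 and 230 CPM at 20%, and 1268 and 1113 CPM in batch 2, over an effective length of 150 bases. The call of whe was lost with the length trend removed (edgeR adjusted p = 0.0531), without the batch 2 library at 10% (0.0831), where its log2 fold change went from 6.31 to 3.07, and without replicate 1 or replicate 2 of batch 1 at 10% (0.0761 and 0.0636). Steadier were CG43797, from between 1.72 and 2.64 CPM to 143 and 74.2 CPM (5.57, SE 0.32), and CG40486, from between 6.64 and 9.11 CPM to 330 and 243 CPM (5.25, SE 0.23). CG34446, CG43679, CG42656 and the long noncoding RNAs CR40469, CR34335 and CR43264 made up the rest with Snapin, of which CG43679, CG42656 and CR34335 overlap another gene on the same strand. Summed with its partner alpha-Est10, CG42656 showed no rise (log2 ratio of sums -0.09), and CG43679 with Sytbeta had a ratio of 2.94. The call of CG42656 was lost with the length trend removed (3.32, edgeR adjusted p = 0.151), without replicate 1 or replicate 2 of batch 1 at 10% (edgeR adjusted p = 0.0921 and 0.0643), without replicate 2 of batch 1 at 20% (0.0735) and without the batch 2 library at 10% (0.1).

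Outside the lists the largest falls included genes at high levels in batch 1. CG34220 was at 3271 and 3118 CPM in batch 1 at 10% oxygen and 1730 and 1731 CPM at 20%, against 443 and 174 CPM in batch 2 (-3.03, SE 0.18, overlapping oys). CG34324 fell from 2029 and 2200 CPM at 10% and 920 and 890 CPM at 20% to 323 and 112 CPM (-2.82), CG31077 from 197 and 205 CPM and 69.1 and 60.0 CPM to 11.5 and 4.29 CPM (-3.99, overlapping RYa-R), and CG11672 by 2.76. These 4 were higher at 10% than at 20% in each batch, as Muc68D, Cht8, Cda9 and Pgant4 were. Zip42C.2, a zinc transporter family member, fell from between 41.9 and 53.7 CPM to 6.41 and 3.43 CPM (-3.23). CG30031, a trypsin-like gene in a cluster of near-identical copies, was at 15.2 to 21.2 CPM in batch 1 and had no count in batch 2, at least 40.6-fold lower against the floor of 3 counts per library.

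Snapin and HemK2 overlap on the same strand, so the split of reads between them is uncertain. Reads went to HemK2 in all 4 batch 1 libraries and to Snapin in both batch 2 libraries, with none to the other. Their sum was 14.6 to 16.9 CPM in batch 1 and 23.2 and 25.0 CPM in batch 2. In the 40% library the reads were again with HemK2, at 24.9 CPM.

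The batch difference was tested for dependence on oxygen with an interaction term, and 0 of 10211 features were called by edgeR, 1021 having an unadjusted p below 0.05; limma voom called 0, DESeq2 124 and edgeR with no TMM 3. The lowest adjusted p was 0.0767, for CG45085, at 49.7 to 65.5 CPM in batch 1, 47.1 CPM in batch 2 at 10% oxygen and 0 CPM at 20%. It overlaps CG8026, and CG46309 and CG46319, also near the top, overlap PRL-1 and gem. CG18542 was at 0 CPM in batch 2 at 10% and 11.4 CPM at 20%.

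The 40% library, titled batch 2, is given here as values with no test. Its mitochondrial share was 71.0% and its counts outside that genome 5.73 M. Mhc was at 1394 CPM, Act57B at 3313 CPM, Gasp at 147 CPM and trh at 24.6 CPM. Myo31DF was at 115 CPM, Ptx1 at 20.4 CPM and Muc68D at 215 CPM. Digestive proteases took 6.08% of its counts and ribosomal proteins 28.3%, beyond the other batch 2 libraries in each case.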

How the data were processed

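RNA of dissected midguts was made into strand-specific mRNA libraries, per the labels, and 6 of 7 libraries entered the tests. The deposited tables give, per the file headers, an estimated count, a TPM value and an effective length in bases for each transcript. STAR 2.7.11b and Salmon 1.10.3 are named, per the submitters' processing notes; for the build and for how these tools were set, nothing was found (not given in the sources used here). Coordinates and overlaps are those of the BDGP6.54 annotation, whose transcript lengths equal those deposited.

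Estimated counts were summed per gene, rounded, and stripped of features named as mitochondrial. Levels are CPM of what remained. Counts were filtered with filterByExpr, scaled with TMM and tested with edgeR 4.0.16 in R 4.3.3 by the quasi-likelihood test, with oxygen and batch as terms and Benjamini-Hochberg adjustment over all features. limma 3.58.1 (on log2(TPM + 1) from the deposited TPM, and with voom) and DESeq2 1.42.0 were alternatives, with other scalings, filters, offsets and each library left out. The procedure was tested on simulated data. Fitted fold changes of genes with no count in a batch are not given; bounds use a floor of 3 counts. Counting error alone sets that floor.

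The members and lists were chosen with earlier results of these data known. Named are the defining genes of each list, up to 4 others of each with the smallest adjusted p, the 10 largest called changes in each direction outside the lists with no overlap between batches and at least 10 TPM, and the 4 features with the lowest interaction p; a further 10 contractile genes, RpL24 and some members of the 3 lists made after values were seen were named after their values were seen. Any pair of libraries differed beyond counting error (chi-square per degree of freedom at least 35.1). No sequences were used here, so promoters were not described. The values of 1 tracheal gene named by the rule are not reported here.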

Additional observations from a re-analysis of the deposited data

Results flagged for a closer look

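In batch 1, the 4 libraries of which were compared for a single value apart from the rest (Dixon's test at the 95% level, which chance meets in about 1 of 20 groups), 3 of 36 list shares and 23 of 235 genes had one. A further 6 genes had opposite batch differences at 10% and 20% oxygen.

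Replicate 1 at 20% oxygen stood apart in the spermatheca share, at 0.0148% of counts against at most 0.00107% in the other 3 libraries. Its genes there were Send1 at 32.51 CPM, Send2 at 2.568, CG17239 at 26.65, CG32277 at 2.713, CG32834 at 18.17 and CG31681 at 62.3 CPM. The same library held the eggshell genes Vml at 26.21 CPM and Vm32E at 11.92 CPM, against at most 2.545 and 1.32 CPM, and eloF at 2.18 CPM, and was low in norpA at 13.9 CPM.

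Replicate 2 at 20% oxygen stood apart in the cell cycle share, at 0.0353% against at most 0.0191%, with Top2, a topoisomerase, at 43.5 CPM and the eggshell gene Cp36 at 36.86 CPM. It also held the collagen IV genes vkg at 27.1 CPM and Col4a1 at 28.61 CPM, against at most 5.064 and 7.596 CPM, and whe at 229.6, CG43679 at 5.42 and CG34446 at 2.404 CPM. tyn was at 15.03 CPM there, only slightly above the 14.29 to 14.34 CPM of the rest of batch 1.

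Replicate 2 at 10% oxygen stood apart in the cuticle share (0.0161% against at most 0.013%), Ppn (35.0 against at most 27.81 CPM) and Tsp2A (252.8 against at most 221.1 CPM). By smaller gaps it did so in Cpr66D (0.3356 against at most 0.2907 CPM) and HemK2 (16.92 against at most 14.81 CPM). Replicate 1 at 10% oxygen stood apart in ninaE (3.201 against at most 1.308 CPM).

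Batch 2 lay below batch 1 at 10% oxygen and above it at 20% in 5 genes, and the reverse in otp, with no interaction called. Tk was at 60.62 CPM in batch 2 against 92.68 and 106.3 CPM at 10%, and at 92.75 against 70.78 and 76.96 CPM at 20%. Eaat1 was at 99.6 and 144.2 CPM in batch 2 at 10% and 20%, ZnT63C at 115.0 and 160.1 CPM, loco at 38.59 and 39.44 CPM and PH4alphaSG2 at 0.6676 and 1.715 CPM. otp was at 1.068 and 0.1429 CPM.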

How the results depend on the processing

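No paired analysis was possible because batch 1 holds replicate numbers 1 and 2 and batch 2 number 3. The counts of 2625 higher and 2686 lower features became 1067 and 6275 with scaling by ribosomal protein genes, which shifts the median of all features by -0.99, and 1376 were higher with limma on log2(TPM + 1) (shift -0.34; DESeq2 shifts it by 0.17 and removal of the length trend by -0.16). Leaving out 1 library gave 1855 to 2392 higher and 2211 to 2513 lower. The interaction had 3 calls with no TMM and 124 with DESeq2. Of 183 called genes 10 changed sign under an alternative, and 0 to 24 lost their call under any one of those with a test; 30 genes that were not called and 16 of 38 list medians changed sign. The cause was not tested. Values that changed sign, as log2 fold changes (list medians by list name), follow. With limma on log2(TPM + 1) they were neurons 0.31, hindgut -0.46, cuticle proteins -0.26, septate junctions -0.25, nuclear-encoded respiratory chain -0.06, glycolysis -0.39, heat shock proteins -0.55, integrin adhesion complex -0.13, loco -0.4, ZnT35C -0.21, drm -0.08, Cp36 -0.05, trol -0.3, Ssk -0.25, Pfk -0.14, Pgk -0.09. Scaled by ribosomal protein genes they were oenocytes -0.75, hindgut -0.65, photoreceptors 0, basement membrane -0.12, septate junctions -0.8, nuclear-encoded respiratory chain -0.62, glycolysis -0.93, cytoplasmic ribosomal proteins -0.01, heat shock proteins -0.92, integrin adhesion complex -0.69, Syt1 -0.35, CaMKII -0.04, loco -0.95, Apoltp -0.16, Mtp -0.4, Cyp4g1 -0.75, Fad2 -0.71, ZnT35C -0.84, drm -0.65, Cp36 -0.34, PH4alphaSG2 -0.35, ninaE 0, norpA -0.38, vkg -0.32, Col4a1 -0.63, trol -0.98, Zip42C.1 -0.07, Ssk -0.8, Pfk -0.73, Pgk -0.66, Hsc70-4 -0.41, SERCA -0.26, Xbp1 -0.35. Within 10% oxygen they were oenocytes -0.99, eggshell and follicle cells 0.09, lysozymes 0, glycolysis -0.22, heat shock proteins -0.34, Cyp4g1 -0.99, Fad2 -0.72, ZnT35C -0.11, CapaR 0.01, drm -0.08, bowl 0.05, PH4alphaSG2 -0.06. Within 20% oxygen they were hindgut -0.63, spermatheca -1.27, cuticle proteins -0.56, Eaat1 0.04, eloF -0.2, FASN2 0.61, Uro 0.02, byn -0.74, otp -0.63, Cp36 -1.96, Send1 -1.62, Send2 -1.27, CG17239 -0.71, CG32277 -0.93, CG32834 -1.82, CG31681 -1.7, trol -0.32, ZnT63C 0.24, Tk 0.31. With the length trend removed (chosen after seeing the data) they were septate junctions -0.05, nuclear-encoded respiratory chain -0.47, glycolysis -0.28, FASN2 0.37, bowl 0.08, Ssk -0.47. With no filter on low counts they were loco -0.01, trol -0.05. With effective length offsets they were loco -0.02. With limma voom they were FASN2 0.65, Uro 0.41, Cp36 -0.44. With mitochondrial features kept they were Uro 0.02. With features of at least 500 bases (also chosen so) they were Uro 0.1, ZnT63C 0.02, Tk 0. With no oxygen term they were Cp36 -1.63, trol 0. With no TMM they were trol -0.05. With all 7 libraries they were trol -0.01. Over the fits without 1 library, the range was oenocytes -1.01 to 1.91, Malpighian tubules -0.55 to 0.48, hindgut -1.05 to 0.49, spermatheca -1.78 to 12.59, cuticle proteins -0.76 to 2.75, lysozymes -0.69 to 0.03, glycolysis -0.21 to 0.21, heat shock proteins -0.4 to 0.18, Cyp4g1 -1.01 to 3.62, eloF -0.32 to 3.84, Fad2 -0.78 to 2.75, FASN3 -2.27 to 0.49, FASN2 -1.36 to 1.06, Uro -0.35 to 1.11, ZnT35C -0.11 to 0.35, CapaR -0.52 to 0.52, byn -1.21 to 3.54, otp -1.79 to 7.38, drm -0.07 to 0.7, bowl -0.39 to 0.06, Cp36 -2.14 to 5.69, Send1 -1.74 to 12.8, Send2 -2.3 to 12.59, CG17239 -0.77 to 14.7, CG32277 -1.46 to 11.78, CG32834 -2.04 to 9.15, CG31681 -1.78 to 15.35, PH4alphaSG2 -0.09 to 1.18, Col4a1 -0.01 to 1.13, trol -0.37 to 0.32, ZnT63C -0.48 to 0.2, Tk -0.61 to 0.27. Depth limits genes near 0.429 CPM in batch 2, where a count of 3 is the floor, and 2 libraries in that batch limit every error given.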
